A study of Mus musculus with 7 samples.

Results

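The genes described here are those whose RNA differed from wild type (WT) in the same direction in every line of 2 Tet mutant genotypes of mouse neural stem cells. A gene was chosen where the normalized counts of all 4 mutant libraries lay above, or all 4 below, the normalized counts of all 3 WT libraries. This rule took 2205 genes with higher values in the mutant lines, 12.2% of the table and called rising genes here. It took 1936 genes with lower values, 10.7% of the table and called falling genes, so that 4141 of 18145 genes were chosen in all. Since the genes were chosen by these normalized counts, their difference from WT is described without a test. That no mutant line of a chosen gene overlaps WT follows from the rule and is no further result where it is stated below. A set of 4 libraries against 3 allows a two-sided exact permutation p of no less than 0.0571 for any gene.

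The WT group holds 3 lines, and the groups with the genotype labels Tet-TFoCa (TFoCa) and Tet-TMut (TMut) hold 2 lines each, with 1 RNA-seq library per line from cells at passage 1. TFoCa lines are called Tet-FoCa in the design text. The alleles, the mouse strain, and the age or culture of the cells are not given in the sources used here, and how the lines were derived is not given either. Whether the lines come from separate animals is not given, so that p values here measure the spread between lines. The title of the series asks about the roles of hydroxymethylcytosine against those of formylcytosine and carboxylcytosine.

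TET enzymes oxidise 5-methylcytosine, the methyl mark carried mainly by cytosines in CpG dinucleotides, to hydroxymethylcytosine and then further to formylcytosine and carboxylcytosine. The glycosylase TDG can cut out the formyl and carboxyl forms, and base excision repair then puts back an unmodified cytosine. Neural stem cells divide and can give rise to neurons, astrocytes and oligodendrocytes, and hydroxymethylcytosine is known to be abundant in the nervous system.

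The libraries hold between 33340167 and 62545457 reads in genes. The targeted genes cannot serve as a check of the labels, since the labels do not name an allele: Tet1, Tet2 and Tet3 were neither rising nor falling. Their normalized counts were 1546 to 1638 in WT, 1355 to 1367 in TFoCa and 1262 to 2779 in TMut for Tet1. For Tet2 they were 1526 to 1791 in WT, 2117 to 4237 in TFoCa and 1364 to 1493 in TMut, and for Tet3 5484 to 6642 in WT, 6159 to 7283 in TFoCa and 4119 to 5766 in TMut. Of 9 neural stem cell markers, all were in the table, 7 were falling (Sox1, Sox2, Pax6, Fabp7, Msi1, Hes5 and Slc1a3) and 1 was rising (Vim). Their summed normalized count was 175096 to 179517 in WT, 146774 to 156691 in TFoCa and 127085 to 151458 in TMut. This sum includes the rising marker Vim, whose counts are given below. It therefore understates how far the sum of the other markers lay below WT in the mutant lines. The 5 fibroblast markers summed to 129126 to 139900 in WT, 317345 to 361324 in TFoCa and 171697 to 243317 in TMut, and none of the 6 markers of microglia and blood is in the table. The 3 pluripotency markers summed to 4906 to 10071 in WT, 371 to 435 in TFoCa and 5095 to 20077 in TMut. The Y-linked gene Kdm5d stood at 18.4 to 21.97 in WT, 19.16 to 1492 in TFoCa and 98.4 to 279 in TMut, so that TFoCa replicate 2 was far above TFoCa replicate 1, and Xist stayed at 7.61 to 12.6 in WT, 2.43 to 3.83 in TFoCa and 23.04 to 25.2 in TMut.

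Genes of 3 chromosomes were shifted together in some mutant libraries. On chromosome 11 the median gene (mean count of 100 or more) lay 0.44 log2 units above the WT mean in TFoCa replicate 2, 0.38 in TMut replicate 1 and 0.18 in TMut replicate 2, against 0.05 in TFoCa replicate 1. On chromosome 1 it lay 0.47 above in TFoCa replicate 2 alone, the other mutant libraries lying between -0.03 and 0.004. On chromosome 8 the medians were -0.18 and -0.21 in TFoCa and -0.10 and -0.03 in TMut, while the mutant medians of all other chromosomes lay between -0.11 and 0.09. The share of rising genes was 22.6% on chromosome 11, 16.8% on chromosome 1 and 6.15% on chromosome 8, and that of falling genes was 2.09%, 4.37% and 18.1%, where the other autosomes and the X gave 8.35% to 15.3% rising and 10.3% to 14.5% falling. With each library's chromosome median removed, 2295 genes were rising and 1810 falling, of which 2007 and 1564 were also chosen without that step. The DNA of the lines was not analysed here, and what part these shifts have in any single gene was not tested.

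**Figure D1:**
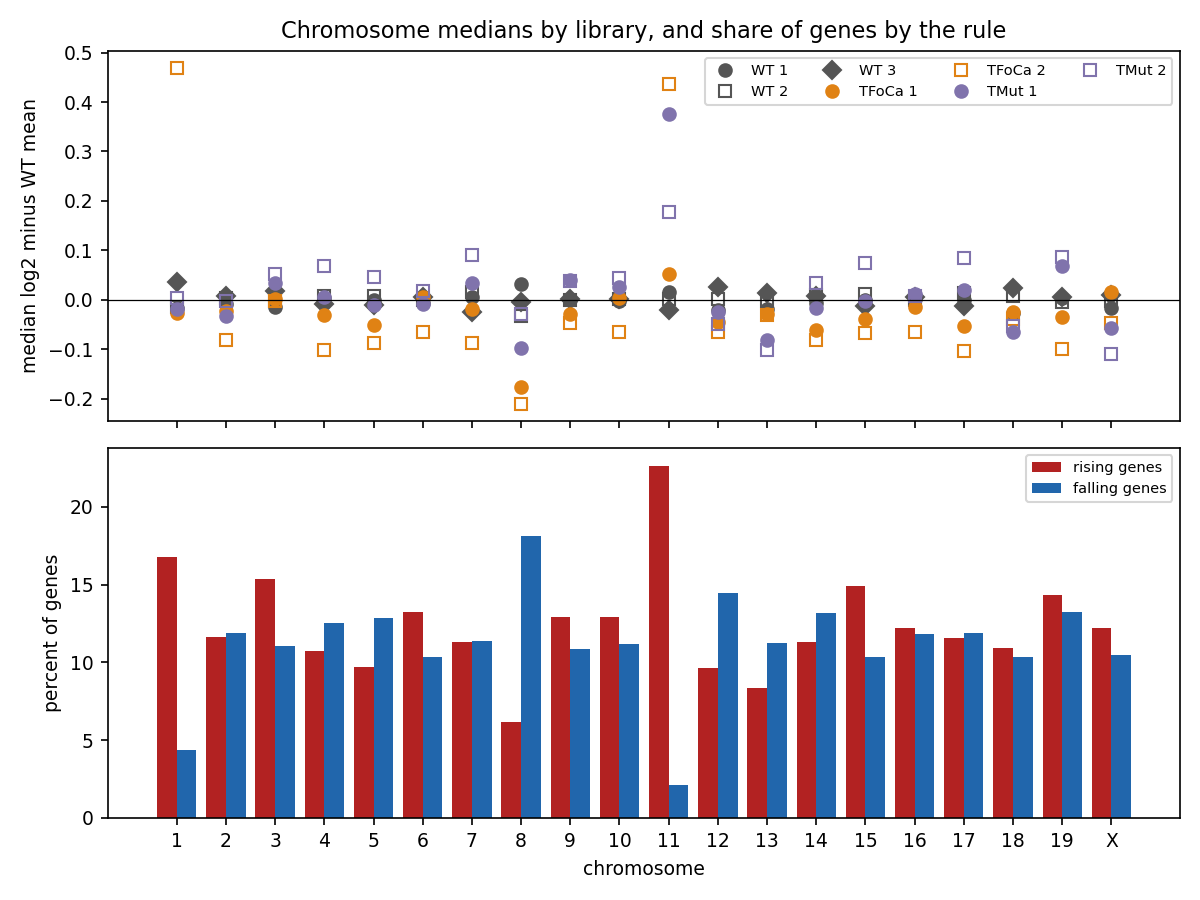
Upper panel: for each chromosome (x axis) and library (symbols), the median over genes of log2(normalized count + 1) minus the WT mean (y axis, log2 units). Lower panel: the percentage of genes of each chromosome that were rising or falling. TFoCa replicate 2 stands at 0.47 on chromosome 1 and 0.44 on chromosome 11, and chromosome 11 holds 22.6% rising and 2.09% falling genes.

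The gap of a gene is used below as the distance between the groups, the lowest value of the higher group minus the highest value of the lower group on the log2(normalized count + 1) scale. The rising gene with the largest gap among genes with a mean of 100 or more was Ptgs2, which encodes cyclooxygenase-2, the inducible enzyme of prostaglandin synthesis. Its normalized counts were 73.7, 94.4 and 136 in WT, 1564 and 2058 in TFoCa, and 2807 and 2221 in TMut. Every mutant line stood above every WT line by a gap of 3.52 log2 units, and the mean was 21.4-fold that of WT (4.42 ± 0.23 log2 units, SE, n = 4 mutant and 3 WT libraries). Emx1, a homeobox factor of the developing cortex, had the largest gap among falling genes with reads in every mutant library. Its counts were 262, 167 and 94.3 in WT, 8.62 and 13.4 in TFoCa, and 4.61 and 4.80 in TMut, -4.30 ± 0.42 log2 units from WT. The WT lines themselves spread widely, with replicate 1 highest, and no mutant line came near the lowest of them.

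The promoter sequences of the following genes are shown because methylated cytosines in mammals lie mainly in CG dinucleotides, and these genes with large gaps range from none to many of them. Each sequence is the 250 bases before the annotated start in RefSeq, build GRCm38.p6, written 5′ to 3′ on the strand of the gene, with CG in capitals. No methylation was measured in these libraries. The rising genes are Ptgs2 (chr1:150099781-150100030, plus strand), Aspn (chr13:49544193-49544442, plus strand) and Col28a1 (chr6:8192618-8192867, minus strand), with 13, 2 and 0 CG dinucleotides. The falling genes are Emx1 (chr6:85187681-85187930, plus strand), Sox1 (chr8:12395269-12395518, plus strand) and Mlc1 (chr15:88978554-88978803, minus strand), with 30, 29 and 0.
Ptgs2: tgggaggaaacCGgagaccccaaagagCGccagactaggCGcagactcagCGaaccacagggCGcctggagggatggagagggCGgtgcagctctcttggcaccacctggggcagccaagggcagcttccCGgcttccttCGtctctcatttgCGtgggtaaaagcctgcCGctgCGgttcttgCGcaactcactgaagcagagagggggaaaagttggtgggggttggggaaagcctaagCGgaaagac
Aspn: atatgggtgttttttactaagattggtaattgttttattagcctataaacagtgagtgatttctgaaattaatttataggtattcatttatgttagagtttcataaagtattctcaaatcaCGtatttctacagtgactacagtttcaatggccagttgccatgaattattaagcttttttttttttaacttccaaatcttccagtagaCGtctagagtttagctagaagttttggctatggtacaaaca
Col28a1: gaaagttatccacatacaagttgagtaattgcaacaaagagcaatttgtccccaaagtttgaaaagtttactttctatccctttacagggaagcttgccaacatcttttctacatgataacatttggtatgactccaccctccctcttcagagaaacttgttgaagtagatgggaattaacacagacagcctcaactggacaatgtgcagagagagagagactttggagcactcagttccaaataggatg
Emx1: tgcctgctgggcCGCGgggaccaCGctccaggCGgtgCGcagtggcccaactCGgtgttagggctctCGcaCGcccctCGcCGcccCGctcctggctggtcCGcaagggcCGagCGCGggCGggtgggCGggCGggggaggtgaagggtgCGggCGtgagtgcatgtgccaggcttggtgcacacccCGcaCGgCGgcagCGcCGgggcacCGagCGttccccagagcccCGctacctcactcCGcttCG
Sox1: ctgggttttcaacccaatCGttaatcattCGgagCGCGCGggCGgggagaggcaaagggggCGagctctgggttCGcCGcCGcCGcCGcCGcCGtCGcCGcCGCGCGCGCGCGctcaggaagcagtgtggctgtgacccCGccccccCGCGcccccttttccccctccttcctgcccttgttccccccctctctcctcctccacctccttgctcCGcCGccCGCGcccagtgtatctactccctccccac
Mlc1: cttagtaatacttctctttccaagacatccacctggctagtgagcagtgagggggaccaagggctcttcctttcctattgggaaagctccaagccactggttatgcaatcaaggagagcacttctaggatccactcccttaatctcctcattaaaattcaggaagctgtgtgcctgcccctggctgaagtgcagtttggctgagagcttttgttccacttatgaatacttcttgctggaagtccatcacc
Both directions thus include promoters with many CG dinucleotides and promoters with none.

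The median difference from WT was 0.83 log2 units over the rising genes and -0.60 over the falling genes, against -0.03 over all genes. Of the rising genes 908 differed by 1 log2 unit or more and 245 by 2 or more, and of the falling genes 593 and 204. Many gaps were small: 534 rising and 765 falling genes had a gap under 0.1, and a gap of at least 1 was found for 211 rising and 57 falling genes. Just inside the rule lay Sdcbp (5914, 5150.1 and 5274 in WT, 6731 and 5914 in TFoCa, and 7389 and 7419.6 in TMut) among rising genes and Bsn (984, 1133 and 1196 in WT, 984 and 640.2 in TFoCa, and 176 and 63.6 in TMut) among falling genes. The lines nearest to each other differ there by less than the digits shown, and Bsn was no longer chosen once chromosome medians were removed. Just outside it lay Fam189b (1862, 1812 and 1813 in WT, 2368 and 1862 in TFoCa, and 2115 and 2219 in TMut) and Tacc3 (6479, 6215 and 6663 in WT, 4517 and 4617 in TFoCa, and 6218 and 5708 in TMut). Leaving out TFoCa replicate 1 moved the number of falling genes from 1936 to 3243, the only library whose omission moved either number by more than 1.5 times. Over the 7 libraries left out in turn the numbers ran from 2348 to 3207 rising and from 2100 to 3243 falling, all higher because fewer values must be separated.

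**Figure D2:**
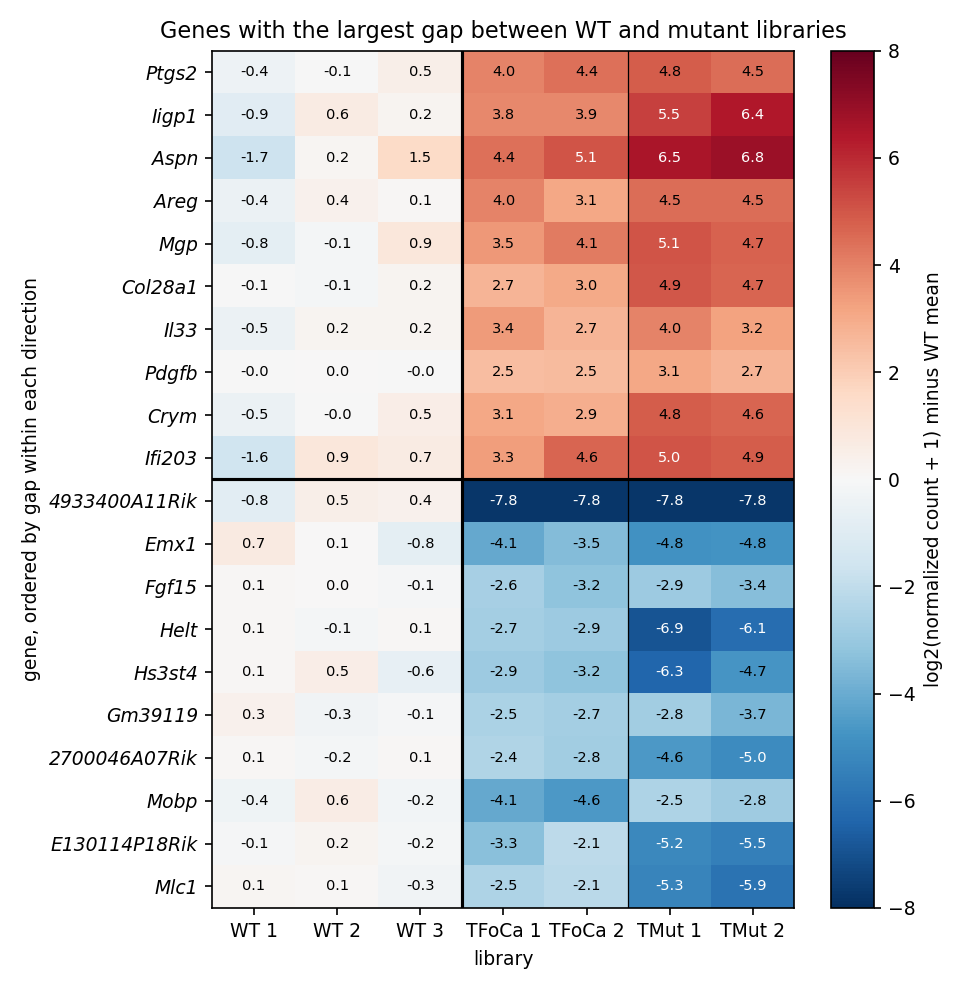
Each cell gives log2(normalized count + 1) minus the mean of the 3 WT libraries for a gene (row) and library (column), for the 10 rising and 10 falling genes with the largest gap and a mean of 100 or more in the higher group. Ptgs2 heads the rising genes with a gap of 3.52, and 4933400A11Rik, listed at 0 in all 4 mutant libraries, heads the falling genes.

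Besides Ptgs2, the rising genes with the largest gaps encode an interferon-induced GTPase, matrix proteins, growth factors and a cytokine. Iigp1, the interferon-induced GTPase, had counts of 1.57, 6.34 and 4.60 in WT, 67.05 and 68.2 in TFoCa, and 207 and 401 in TMut. Aspn, which encodes the small proteoglycan asporin, had 0, 2.54 and 8.05 in WT, 65.1 and 105 in TFoCa, and 289 and 364 in TMut. Mgp, the matrix Gla protein that limits calcification, had 116, 180.0 and 374 in WT, 2211 and 3509 in TFoCa, and 6656 and 5313 in TMut. In these genes the groups lie far apart, and the TMut lines lie above the TFoCa lines, a difference that limma called for Iigp1 (adjusted p = 0.0304) but not for Aspn (0.133) or Mgp (0.115). Crym, which encodes a thyroid hormone-binding protein, lay 3.88 ± 0.24 log2 units above WT, and Il33, an alarmin cytokine, 3.33 ± 0.27. Il1rl1, the receptor of IL-33, was also rising; it was listed at 0 in all 3 WT libraries and averaged 34.8 in the mutant lines, at least 43.2-fold higher from a floor of 3 reads over the WT group (at least 21.6-fold with 6 reads). Il1rl1 was named after its values were seen. The other rising gene at 0 in all WT libraries, named in the same way, was Slfn2, of an interferon-regulated family, at least 90.7-fold higher (45.3 with 6 reads).

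At the other end, 4933400A11Rik, a transcribed pseudogene on the X chromosome in RefSeq, had counts of 120.0, 300.4 and 279.5 in WT and 0 in all mutant libraries. It was at least 277-fold lower in the mutant lines from a floor of 3 reads over the group, or 139-fold with 6 reads, and it was the single falling gene at 0 in every mutant line. Fgf15, a growth factor of the embryonic midline and midbrain, had counts of 11237, 10826 and 10059 in WT, 1711 and 1143 in TFoCa, and 1452 and 1022 in TMut. Both genotypes stood at like levels, at -2.93 and -3.13 log2 units from WT. Helt, a basic helix-loop-helix factor of GABAergic midbrain neurons, had 419.7, 365 and 421 in WT, 61.3 and 53.6 in TFoCa, and 2.30 and 4.80 in TMut, with the TMut lines below the TFoCa lines (adjusted p = 0.00157, limma). Hs3st4, which sulfates heparan sulfate, lay -4.31 ± 0.44 log2 units from WT, Mobp, a myelin gene, -3.50 ± 0.36, and Mlc1, an astrocyte membrane protein, -3.96 ± 0.22. The other genes with the largest falling gaps, Gm39119, 2700046A07Rik and E130114P18Rik, lay at -2.94, -3.70 and -4.02.

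**Figure D3:**
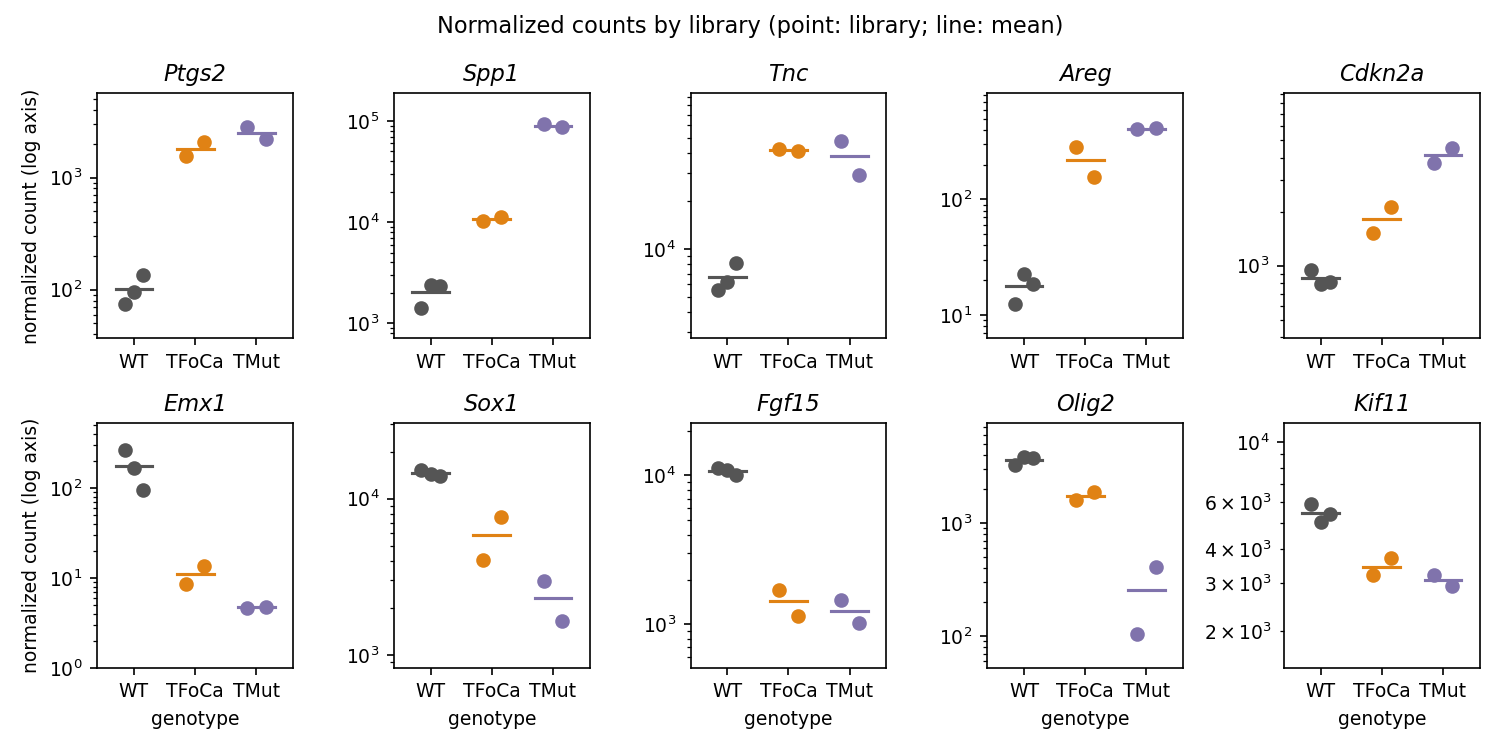
Normalized counts (log y axis, a separate range per gene) of 5 rising genes (upper row) and 5 falling genes (lower row) by genotype. Points are libraries and lines are group means. Ptgs2, Tnc and Fgf15 stand at like levels in TFoCa and TMut, while Spp1 and Olig2 lie farther from WT in TMut.

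Genes of the extracellular matrix made up the most numerous rising groups. Of 57 measured genes of collagens and collagen crosslinking, 29 were rising (50.9%, against 12.2% of all genes) and 1 was falling, and the median of the list was 0.63 log2 units above WT. It was 0.89 in TFoCa and 0.43 in TMut. Of the 57 genes, limma called 5 higher and 22 lower in TMut than in TFoCa (17.3% and 18.5% over all genes). Among the 29 rising genes these numbers were 4 and 6. Col3a1, a fibrillar collagen, had counts of 62864, 70399 and 68395 in WT, 147502 and 171050.0 in TFoCa, and 152575 and 132324 in TMut. No mutant line overlapped WT. The crosslinking enzymes Lox and Loxl1 stood at 289.7 to 334 in WT and 879 to 1989 in the mutant libraries for Lox and 2021 to 2430.4 in WT and 4934 to 10842 in the mutant libraries for Loxl1, and the prolyl hydroxylase family gene P3h4 lay at 1.26 ± 0.08 log2 units. Col28a1, a minor collagen, had 9.41, 8.87 and 11.5 in WT, 69.9 and 88.9 in TFoCa, and 334 and 279 in TMut and was higher in TMut than in TFoCa (adjusted p = 0.00636, limma). Col13a1, a transmembrane collagen, was the falling gene, at -2.18 ± 0.33. Col1a1, another fibrillar collagen gene, was not chosen: it had 42183, 44222 and 42318 in WT, 85789 and 97393 in TFoCa, and 35453 and 19191 in TMut, with TFoCa above WT and TMut below it.

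Of 76 matrix glycoproteins and proteoglycans, 35 were rising (46.1%) and 4 falling (5.26%), with a median of 0.67. Tnc, tenascin-C, a glycoprotein of the stem cell niche, had counts of 5506, 6217 and 8234 in WT, 42421 and 41014 in TFoCa, and 47439 and 29089 in TMut, and the levels of both genotypes overlapped. Spp1, osteopontin, had 1429, 2380.1 and 2357 in WT, 10181 and 11290.0 in TFoCa, and 93244 and 86228 in TMut. The TMut lines lay above the TFoCa lines, which were themselves above WT (TMut minus TFoCa 3.06 ± 0.24 log2 units, adjusted p = 0.00116, limma). The 4 falling genes of this list are genes of the neural matrix and basement membrane: Lamc3, a laminin chain, at -4.15, the brain proteoglycans Bcan at -1.42 and Cspg5 at -1.72, and Sparcl1 at -1.72.

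Proteases that cut the matrix, and their inhibitors, gave 27 rising (48.2%) and 3 falling genes (5.36%) of 56, with a median of 0.66. Timp1, an inhibitor of matrix metalloproteinases, had counts of 359, 473 and 409.5 in WT, 2062 and 2125 in TFoCa, and 4204 and 3766 in TMut. Plau, urokinase, had 134, 108 and 110.4 in WT, 405 and 349 in TFoCa, and 1312 and 1880.1 in TMut. Its receptor gene Plaur had 140.4, 119.8 and 130.0 in WT, 431 and 326 in TFoCa, and 600.1 and 1059 in TMut. In all 3 genes no mutant line overlapped WT, and the TMut lines lay above the TFoCa lines (adjusted p = 0.00455, 0.00182 and 0.0258, limma). Adamts5, an aggrecanase, lay 6.51-fold above WT. The falling genes were the membrane-type metalloproteinases Mmp24 at -1.93 and Mmp17 at -1.50, and Ctsk, the cysteine protease cathepsin K, at -0.61, which was named after its values were seen. Mmp13, Mmp12, Mmp3 and Mmp10 are neighbours on chromosome 9 in the RefSeq gene order, and all 4 were rising.

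Genes of smooth muscle and the contractile cytoskeleton had the highest rising share of any list described, 20 of 29 (69.0%), with 0 falling and a median of 1.10. Myof, a membrane repair protein, had 476, 425 and 525 in WT, 1673 and 1704 in TFoCa, and 3076 and 3396 in TMut. Cnn2, a calponin, had 2787, 3502 and 3488 in WT, 9727 and 7221 in TFoCa, and 19434 and 21711 in TMut. Both were higher in TMut than in TFoCa (adjusted p = 0.00331 and 0.00253, limma), as were 15 of the 20 rising genes, while 0 were lower. Lmod1, an actin nucleator of smooth muscle, lay at 1.79 ± 0.22, and Des, the muscle intermediate filament, at 1.88 ± 0.44 with 1 TFoCa line far above the other (841 and 3420.2). Integrins, cadherins and epithelial genes gave 15 rising (25.9%, against 12.2% of all genes) and 3 falling (5.17%) of 58. The median of that list was -0.015, with 0.07 in TFoCa and 0.67 in TMut, so the list as a whole did not rise. Itga1, a collagen receptor subunit, had 379, 337 and 474 in WT, 2343 and 2053 in TFoCa, and 4056 and 3876 in TMut, and Itgb3 and Itgb4 lay at 2.02 and 1.43. Cdh2, N-cadherin, the main cadherin of neural progenitors, was falling, with 11110.0, 10188 and 10314 in WT, 6806 and 7696 in TFoCa, and 6374 and 4196 in TMut.

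Transcription factors of mesenchyme and neural crest gave 23 rising (43.4%) and 2 falling genes (3.77%) of 53, with a median of 0.67. Snai2, a repressor of epithelial genes, had counts of 100.4, 109.7 and 101 in WT, 464 and 343 in TFoCa, and 754 and 946 in TMut. Runx1 had 419.7, 477 and 481 in WT, 1412 and 1536 in TFoCa, and 1606 and 1345 in TMut, and the 2 mutant genotypes were level (1.68 and 1.68 log2 units from WT). Runx2, the osteoblast factor, lay at 1.53 ± 0.25, and Six2, a factor of nephron and head mesenchyme, at 3.09 ± 0.15 with TMut above TFoCa (adjusted p = 0.00167, limma). The 2 falling factors were Gata2 at -1.07 and Sox8 at -1.24. Fibroblast marker sums were higher in all mutant lines as given above, but 1 of the 5 markers, Col3a1, was rising and the other 4 were not chosen. Col3a1, chosen by the rule, made up most of the sum in both TMut lines, where Col1a1 lay below WT. Without Col3a1 the sum of TMut replicate 2 lay below every WT line, so the sums do not show a rise of the other markers in every mutant line. In a wider list of 13 fibroblast genes 4 were rising (Fn1, Postn, Col3a1 and Acta2) and 0 falling. What part a change in the mix of cells has in these groups was not tested, and in bulk RNA fewer cells of a type and less RNA per cell cannot be told apart.

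Ligands and receptors of several growth factor pathways were rising. Of 67 genes of FGF, EGF, PDGF and IGF signalling, 21 were rising (31.3%) and 4 falling (5.97%), with a median of 0.35. Areg, amphiregulin, an EGF receptor ligand, had 12.6, 22.8 and 18.4 in WT, 284 and 157 in TFoCa, and 404 and 414 in TMut. Hbegf, another ligand of that receptor, had 118, 188 and 197 in WT, 861 and 689 in TFoCa, and 1201 and 1443 in TMut. Pdgfb, a PDGF chain, had 65.1, 67.2 and 63.3 in WT, 364 and 386 in TFoCa, and 566 and 443 in TMut. All 3 ligands stood apart from WT in every mutant line, and their means were 16.01-, 6.13- and 6.56-fold those of WT. Igfbp3, which binds insulin-like growth factors, had 2754, 3818 and 4106 in WT, 15240.0 and 27034 in TFoCa, and 34356 and 31879 in TMut, and the receptor gene Egfr was rising too. Igfbpl1 and Igfbp1 were falling. Igfbpl1 had 27497, 27229 and 18224 in WT, 11059 and 10426 in TFoCa, and 2088 and 525 in TMut. Igfbp1 had 94.1, 97.6 and 437 in WT, 3.83 and 41.4 in TFoCa, and 0 and 0 in TMut, with TMut at 0. Fgf3 was falling at -0.81 ± 0.24.

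Of 59 genes of TGF-beta, activin and BMP signalling, 21 were rising (35.6%) and 3 falling (5.08%), with a median of 0.35. Inhba, an activin subunit, had 37.7, 63.4 and 87.4 in WT, 1737 and 708 in TFoCa, and 385 and 277 in TMut. Inhbb, the other activin beta subunit described, had 324, 369.5 and 406 in WT, 1164 and 1233 in TFoCa, and 1985 and 1839 in TMut. The order of the genotypes differed: TFoCa was higher for Inhba (TMut minus TFoCa -1.76 ± 0.51, adjusted p = 0.0303, limma) and TMut for Inhbb (0.67 ± 0.15, adjusted p = 0.0132). Tgfb1, the ligand, lay at 1.82 ± 0.14, and Bmper, a regulator of BMPs, at 2.27 ± 0.26. Acvr2b, an activin receptor, was falling at -0.90 ± 0.10, as were Tgif2 and Gdf10 at -0.41 and -1.01.

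The Wnt list had members in both directions, 15 rising (25.4%) and 9 falling (15.3%) of 59, with a median of 0.09. Fzd4, a Frizzled receptor, had 349.9, 354 and 400.3 in WT, 875 and 849.6 in TFoCa, and 1345 and 1886 in TMut. Fzd9 and Fzd10, receptors of the same family, were falling, Fzd9 with 1915, 2011 and 1593 in WT, 677 and 1014 in TFoCa, and 267 and 187 in TMut and Fzd10 at -1.19 ± 0.24. Wnt6 lay at 1.82 ± 0.32, Lgr6, an R-spondin receptor, at 2.21 ± 0.34, and the Wnt antagonist Dkk1 at 1.64 ± 0.36. Wnt3 and the R-spondin gene Rspo1 were falling at -1.22 ± 0.23 and -2.03 ± 0.31. Axon guidance genes gave 19 rising (28.4%) and 6 falling (8.96%) of 67, with a median of -0.03. The repellent ligand Sema3a had 197, 299.8 and 353 in WT, 1479 and 1604 in TFoCa, and 3269 and 3087 in TMut. Its receptor gene Nrp1 had 1328, 1304 and 1274 in WT, 2327 and 2709 in TFoCa, and 3376 and 3065 in TMut. Both lay above WT in every mutant line. Epha2 and Sema3d lay at 1.30 and 1.68, while Sema5b (-1.66), Plxnc1 (-1.68), Efna2 (-0.84) and Ephb2 (-1.11) were falling, Ephb2 no longer so once chromosome medians were removed.

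Immediate-early and growth factor-induced transcription factors, the AP-1, Egr and Myc list, gave 18 rising (52.9%) and 2 falling genes (5.88%) of 34, with a median of 0.67. Fosl2, an AP-1 subunit, had 814, 860.1 and 762 in WT, 2637 and 3784 in TFoCa, and 3452 and 2642 in TMut. Myc had 775, 602 and 641 in WT, 1661 and 1675 in TFoCa, and 2334 and 3132 in TMut, and Egr2 and Egr3 lay at 1.57 ± 0.16 and 1.30 ± 0.14. The 2 falling genes were the other Myc family members, Mycl with 5229.6, 5232 and 5434 in WT, 2844 and 3196 in TFoCa, and 1124 and 724 in TMut. Mycn had 4325, 5013 and 5144 in WT, 2388 and 4174 in TFoCa, and 2884 and 3353 in TMut. By the rule, Myc lay above, and Mycl and Mycn below, every WT line in each of the 4 mutant lines.

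Prostaglandin genes gave 9 rising (40.9%) and 2 falling (9.09%) of 22, with a median of 0.62. Pla2g4a, the phospholipase that releases arachidonic acid, had 109.8, 87.5 and 104 in WT, 509.6 and 523 in TFoCa, and 487 and 363 in TMut. Ptgs1, the constitutive cyclooxygenase, had 32.2, 29.2 and 39.1 in WT, 176 and 86.4 in TFoCa, and 212 and 191 in TMut. Ptger3, a prostaglandin E2 receptor, lay at 1.90 ± 0.35. The 2 falling genes encode synthases of prostaglandin D2, Hpgds with 113, 106 and 151 in WT, 32.6 and 68.2 in TFoCa, and 9.21 and 12.01 in TMut. Ptgds, which is named after its values were seen, had 86.3, 68.5 and 65.6 in WT, 26.8 and 17.04 in TFoCa, and 18.4 and 26.4 in TMut. Pla2g4a, Ptgs2os and Ptgs2 are neighbours on chromosome 1, where TFoCa replicate 2 was shifted by 0.47, and the part of that shift in these genes was not tested. Reads of Ptgs2 and of its antisense neighbour cannot be told apart unless strand was used in counting, which is not given in the sources used here.

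Chemokines and cytokines gave 16 rising (45.7%) and 4 falling (11.4%) of 35, with a median of 0.86. Ccl7, a monocyte chemokine, had 42.4, 65.9 and 55.2 in WT, 238 and 196 in TFoCa, and 881 and 532 in TMut. Cxcl15 had 12.6, 7.61 and 4.60 in WT, 204 and 133 in TFoCa, and 108 and 64.8 in TMut. Cxcl12, the chemokine that guides migrating neural cells, was falling at -0.60 ± 0.20. Interferon response and antigen presentation genes gave 21 rising (36.8%) and 2 falling (3.51%) of 57, with a median of 1.06. Ifi203 had 1.57, 13.9 and 11.5 in WT, 78.5 and 195 in TFoCa, and 253 and 226 in TMut. Ifi202b had 6.28, 7.61 and 31.1 in WT, 92.9 and 209 in TFoCa, and 396 and 363 in TMut. They belong to a run of 5 neighbouring rising genes on chromosome 1 (Ifi204, Mndal, Ifi211, Ifi203 and Ifi202b) that are close paralogs, so that their reads may be split uncertainly. B2m, the shared light chain of class I molecules, had 1445, 1690.5 and 1606 in WT, 2754 and 2485 in TFoCa, and 5423 and 5841 in TMut, while the heavy chain genes H2-K1 and H2-D1 were falling, H2-K1 with 5199, 4962 and 5235 in WT, 3089 and 3936 in TFoCa, and 3088 and 3483 in TMut. H2-D1 had 1815, 2030.3 and 1902 in WT, 1255 and 1708 in TFoCa, and 1281 and 1778 in TMut. H2-D1 was not chosen once chromosome medians were removed. Of the 21 rising genes 12 were higher in TMut than in TFoCa and 0 lower.

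Of the cell cycle inhibitor genes, Cdkn2a, Cdkn2b and Cdkn1a were rising, while Cdkn2c was falling. Cdkn2a, which encodes p16Ink4a and p19Arf, had 951, 789 and 809.9 in WT, 1520.1 and 2120.3 in TFoCa, and 3720.4 and 4547 in TMut. Its neighbour Cdkn2b, p15Ink4b, had 757, 852 and 865 in WT, 2418 and 1604 in TFoCa, and 2182 and 2035 in TMut. Cdkn1a, p21, had 9136, 8617 and 9006 in WT, 14510.0 and 15407 in TFoCa, and 21273 and 23644 in TMut. No mutant line overlapped WT for these 3 genes, and TMut lay above TFoCa for Cdkn2a and Cdkn1a (adjusted p = 0.00394 and 0.00532, limma). Ccnd3 was rising at 0.66 ± 0.07. The E2F factors E2f1, E2f2, E2f3, E2f5 and E2f8 were falling, E2f1 with 4879, 4410.4 and 4512 in WT, 3232 and 3294 in TFoCa, and 3389 and 3001 in TMut. In the list of cell cycle inhibitors, RB family and cyclins, 4 of 26 were rising (15.4%), near the 12.2% of all genes. In that list 9 were falling (34.6%, against 10.7%), the others being the inhibitor Cdkn2c, the pocket protein genes Rb1 and Rbl1, and Cdk6. Of 32 p53 targets 7 were rising (21.9%), with Perp at 2.02, Plk2 at 1.43 and Fas at 1.65, and 2 were falling, of which Ckap2 was no longer chosen once chromosome medians were removed.

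**Figure D4:**
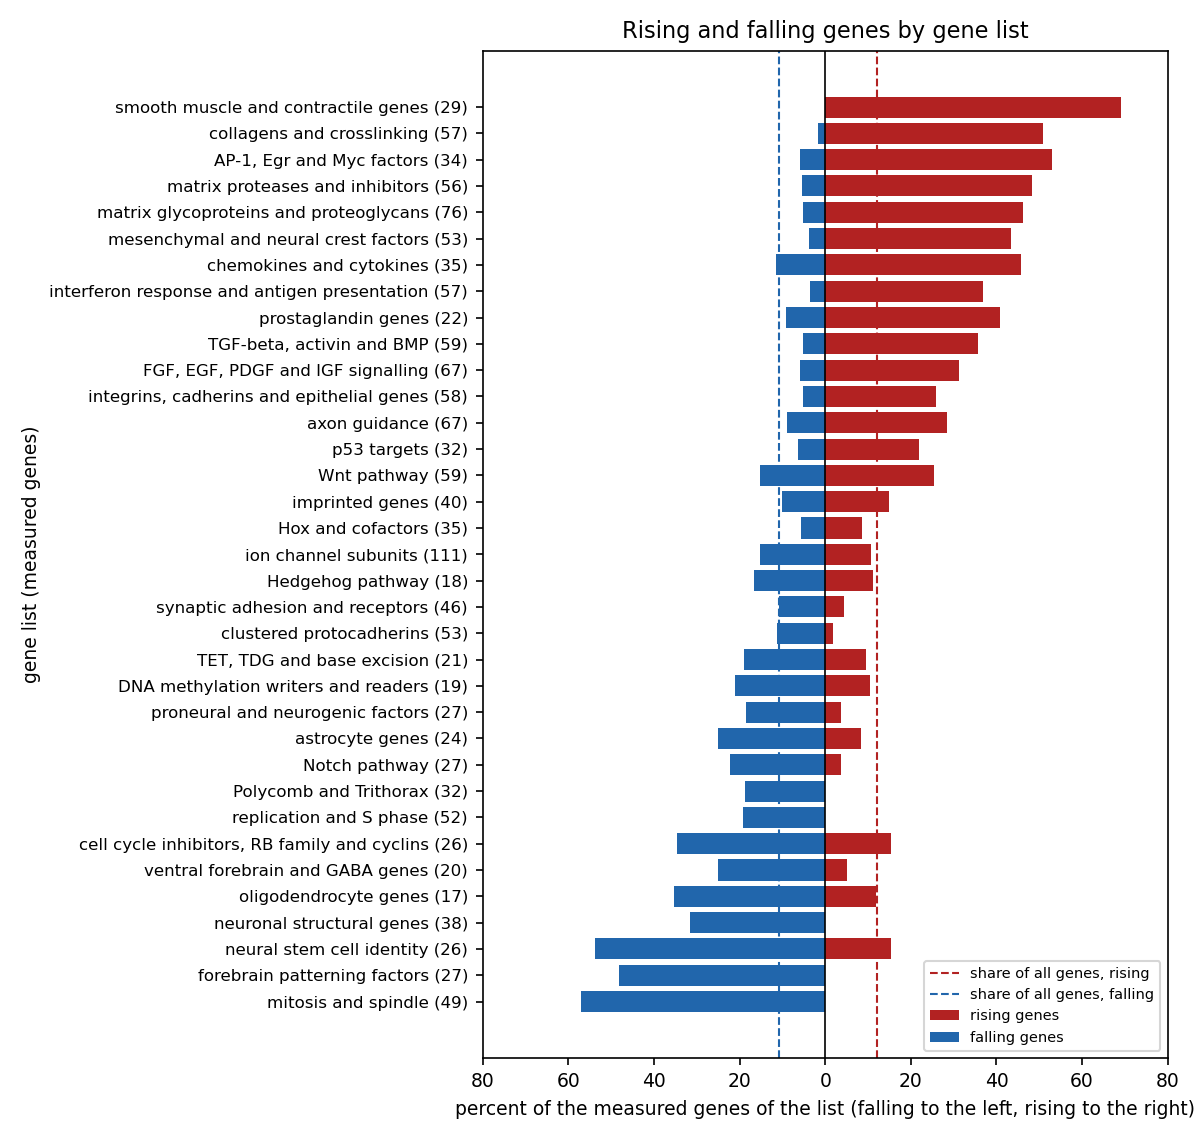
Percentage of the measured genes of each list (number in brackets) that were rising (right) or falling (left), for the 35 lists with at least 5 such genes, with dashed lines at the shares over all genes (12.2% and 10.7%). Smooth muscle genes stand at 69.0% rising and mitosis genes at 57.1% falling.

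These counts depend on how far the groups must lie apart. When the gap had to exceed 0.5 log2 units, 643 rising and 218 falling genes were left of all genes. Rising matrix glycoproteins then numbered 20 of 35, collagens 12 of 29, proteases 16 of 27, smooth muscle genes 11 of 20, mesenchymal factors 15 of 23 and interferon genes 9 of 21. Of the falling genes 9 of 13 were left among forebrain factors, 7 of 14 among neural stem cell genes and 1 of 12 among neuronal structural genes. None was left among cell cycle regulators (9 before), Polycomb genes (6) and protocadherins (6).

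Among the falling genes, mitosis and spindle genes formed the largest share of a list. Of 49 measured, 28 were falling (57.1%, against 10.7% of all genes) and 0 rising, and the median was -0.39. It was -0.54 in TFoCa and -0.21 in TMut. Of the 49 genes, limma called 19 higher and 2 lower in TMut than in TFoCa (17.3% and 18.5% over all genes). When the gap had to exceed 0.5 log2 units, 0 of these 28 genes were chosen. Kif11, the motor that pushes spindle poles apart, had 5869.8, 5068 and 5415 in WT, 3211 and 3706 in TFoCa, and 3229 and 2917 in TMut. Nusap1, a spindle microtubule protein, had 5076, 4743 and 5079 in WT, 3134 and 3395 in TFoCa, and 2805 and 2402 in TMut. Racgap1, which acts in cytokinesis, had 11059, 11337 and 11883 in WT, 8186 and 8228 in TFoCa, and 6338 and 5542 in TMut. The differences are small in size, at -0.74 ± 0.09, -0.77 ± 0.09 and -0.71 ± 0.08 log2 units, and by the rule no mutant line reached the lowest WT line. Ect2, the exchange factor of cytokinesis, lay at -0.69 ± 0.10. Of 52 replication and S phase genes, 10 were falling and 0 rising, with a median of -0.31. Gmnn, geminin, had 1996, 1639.8 and 1673 in WT, 840.0 and 1104 in TFoCa, and 1079 and 1151 in TMut, Rrm2, the ribonucleotide reductase subunit, lay at -0.71 ± 0.13, and Pola1 and Pold3 at -0.54 and -0.38. With that margin 1 of the 10 was chosen. The median of this list was -0.64 in TFoCa and -0.01 in TMut.

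Short motifs, which the rule did not use, were counted in the promoters of the lists. Of 23 falling mitosis genes with a promoter in the table, 78.3% held CCAAT in the 250 bases before the start, on either strand, against 34.5% of all 27025 promoters; of 18 mitosis genes that were not chosen, 61.1% held it. TTTGAA, the core of the cell cycle homology element, was found in 30.4% of the 23 and in 16.3% of all promoters, and in 33.3% of the 18. Matches to short letters are descriptions and not sites. The promoter of Kif11 (chr19:37376132-37376381, plus strand) is shown because it holds both, with CCAAT and TTTGAA on either strand in capitals.
Kif11: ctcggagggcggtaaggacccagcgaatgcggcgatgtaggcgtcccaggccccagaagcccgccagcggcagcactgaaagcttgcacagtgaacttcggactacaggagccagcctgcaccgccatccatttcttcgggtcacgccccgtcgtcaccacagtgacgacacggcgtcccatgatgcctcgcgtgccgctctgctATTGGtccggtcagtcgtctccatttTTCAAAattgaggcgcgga
Among rising lists, the core of interferon-stimulated elements (TTTC, any 2 bases, TTTC) was found in 35.3% of 17 promoters of interferon genes against 3.04% of all promoters, and in 48.1% of 27 interferon genes that were not chosen. TGANTCA, the AP-1 motif, was found in 22.2% of 18 promoters of rising matrix proteases, 29.4% of those 17 interferon genes and 6.87% of all promoters. Among genes that were not chosen it was found in 0 of 14 promoters of proteases and in 18.5% of the 27 of interferon genes. Plaur (chr7:24462233-24462482, plus strand) is shown as a rising protease gene that holds it, with TGANTCA in capitals.
Plaur: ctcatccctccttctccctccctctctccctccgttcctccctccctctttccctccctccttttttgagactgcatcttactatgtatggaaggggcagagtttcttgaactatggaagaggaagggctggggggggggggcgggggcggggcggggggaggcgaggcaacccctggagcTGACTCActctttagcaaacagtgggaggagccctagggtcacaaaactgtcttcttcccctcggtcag
These shares rest on few promoters, and a promoter was in the table for 75.9% of rising, 74.1% of falling and 70.2% of all genes. The 27025 promoters also cover genes without counts here, since 12742 of the 18145 measured genes have one. They are thus not a matched background, and shares over measured genes alone were not taken.

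Genes of neural stem cell identity were falling in 14 of 26 cases (53.8%) and rising in 4 (15.4%), with a median of -1.30 (-0.56 in TFoCa and -1.89 in TMut). Sox1, an early neural SoxB1 factor, had counts of 15231, 14481 and 13933 in WT, 4054 and 7669 in TFoCa, and 2981 and 1652 in TMut. Sox2, the SoxB1 factor of stem cells, had 17594, 22162 and 19998 in WT, 11738 and 14882 in TFoCa, and 6546 and 6298 in TMut. Pax6, a factor of cortical radial glia, had 5885, 6322 and 6941 in WT, 1130.3 and 3998 in TFoCa, and 758 and 359 in TMut. In all 3 genes every mutant line lay below every WT line, with TMut below TFoCa (adjusted p = 0.0188, 0.00307 and 0.0251, limma). Hes5, the Notch effector, had 6294, 4376 and 5349 in WT, 1045 and 2524 in TFoCa, and 623 and 78.04 in TMut. Fabp7, the radial glia lipid carrier, had 13565, 16162 and 15026 in WT, 8175 and 3015 in TFoCa, and 1982 and 535 in TMut. Msi1 lay at -1.13 ± 0.22, the glutamate transporter gene Slc1a3 at -1.53 ± 0.15, and Olig1 and Olig2 at -1.98 ± 0.40 and -2.59 ± 0.40. The 4 rising genes of the list were Tnc, Lgals1 with 5965, 5773 and 7069 in WT, 16163 and 15672 in TFoCa, and 39352 and 35304 in TMut, Cd9 at 0.60 ± 0.17 and Vim. Vim, the filament protein vimentin, had 65556, 66949 and 70733 in WT, 84912 and 88637 in TFoCa, and 113661 and 101256 in TMut. It lay at 0.51 ± 0.10 log2 units and at 0.11 with quantile normalization. Nes, nestin, was not chosen, since TMut replicate 1 overlapped WT (21385, 14908 and 16147 in WT, 11475 and 9651 in TFoCa, and 15124 and 11419 in TMut).

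Forebrain patterning factors gave 13 falling (48.1%) and 0 rising genes of 27, with a median of -1.32 (-0.70 in TFoCa and -1.83 in TMut). Zic5 had 3692, 3730.3 and 3026 in WT, 1034 and 1793 in TFoCa, and 655 and 889.6 in TMut. Zic4 had 3202, 3304 and 2589.5 in WT, 1009 and 1569 in TFoCa, and 706 and 288 in TMut. Sp8, a factor of the telencephalic midline and of interneurons, had 1361, 1471 and 1559 in WT, 345 and 774 in TFoCa, and 484 and 375 in TMut. Zic1, Zic2, Otx1, Otx2, Emx2, Nr2f1 and Vax1 were among the others falling, and Zic5 and Zic2 sit in a run of 5 neighbouring falling genes on chromosome 14. Of 22 midbrain and hindbrain factors 2 were falling (9.09%: Pax5 and En2) and 2 rising (9.09%), below the shares over all genes (10.7% and 12.2%). En2 had 1914, 1509 and 1774 in WT, 851 and 315 in TFoCa, and 425 and 477 in TMut. Cnpy1, which lies outside the lists, had 1339, 1805 and 1999 in WT, 593 and 353 in TFoCa, and 325 and 538 in TMut. Ventral forebrain and GABA genes gave 5 falling (25%) and 1 rising gene of 20, with medians of -0.55 in TFoCa and -3.42 in TMut. Gsx2, the ventral progenitor factor, had 807, 1217 and 1334 in WT, 295 and 274 in TFoCa, and 25.3 and 4.80 in TMut. Gsx1 had 651, 885 and 766 in WT, 258 and 286 in TFoCa, and 85.2 and 40.8 in TMut. For both, the TFoCa lines stood between WT and TMut (adjusted p = 0.00269 and 0.00384 for TMut against TFoCa, limma). Lhx6, a factor of migrating interneurons, was the rising gene at 1.36 ± 0.19. Of 35 Hox genes and cofactors, 3 were rising (8.57%), all of the Hoxd cluster, and 2 were falling (5.71%), again below the shares over all genes. Hoxd9 stood at 29.8 to 73.6 in WT, 80.5 to 256 in TFoCa and 80.6 to 109 in TMut. Pbx3 and Pbx4 were falling at -0.50 and -0.84.

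Of 27 Notch pathway genes 6 were falling (22.2%) and 1 rising, with medians of 0.01 in TFoCa and -0.82 in TMut. Dll1, a Notch ligand, had 7996, 7228 and 8199.9 in WT, 3583 and 6123 in TFoCa, and 1204 and 407 in TMut. Lfng, which modifies the receptor, had 2176, 1716 and 1768 in WT, 1586 and 1250.0 in TFoCa, and 980.2 and 739.6 in TMut. Jag1, another ligand, was the rising gene, with 3277, 3749 and 3746 in WT, 5922 and 5369 in TFoCa, and 4780.1 and 3808 in TMut and a gap of only 0.02. Proneural and neurogenic factors gave 5 falling (18.5%) and 1 rising gene of 27, with a median of -1.55 (-0.19 in TFoCa and -2.75 in TMut). Neurod2 and Neurod6, factors of excitatory neurons, were falling. Neurod2 had 480.1, 281 and 163 in WT, 79.5 and 97.4 in TFoCa, and 4.61 and 0 in TMut. Neurod6 had 184, 131 and 62.1 in WT, 11.5 and 26.8 in TFoCa, and 2.30 and 0 in TMut, and libraries of TMut reached 0 for both. Tbr1, a factor of deep-layer cortical neurons, had 1973, 2321 and 1596 in WT, 261 and 1526 in TFoCa, and 85.2 and 26.4 in TMut. The spread within TFoCa was wide for Tbr1, where replicate 2 lay just under the lowest WT line. With chromosome medians removed the list had 3 falling and 0 rising genes, Tbr1 and the rising gene Ebf1 being among those lost.

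Neuronal structural genes gave 12 falling (31.6%) and 0 rising genes of 38, with a median of -1.26 (-0.21 in TFoCa and -2.22 in TMut). Tubb3, neuronal beta-tubulin, had 29356, 23736 and 25040.0 in WT, 16662 and 16873 in TFoCa, and 5475 and 2021 in TMut. Dcx, doublecortin, had 8306, 8307 and 8761 in WT, 6373 and 5641 in TFoCa, and 1179.5 and 295 in TMut. Ina, a neurofilament protein, had 8149.6, 7785 and 8129 in WT, 5232 and 4582 in TFoCa, and 1636 and 1318 in TMut. The TFoCa means lay at -0.63, -0.50 and -0.71 log2 units from WT, and the TMut means at -2.96, -3.84 and -2.45. Of the 12, 10 were lower in TMut than in TFoCa (limma) and 0 higher. The 5 neuron markers summed to 50997 to 55163 in WT, 38061 to 40173 in TFoCa and 7750 to 13262 in TMut, and their part in these genes was not tested. Of 46 synaptic genes 5 were falling (10.9%) and 2 rising (4.35%), with Gria1, an AMPA receptor subunit, at 562, 614 and 513 in WT, 313 and 368 in TFoCa, and 48.4 and 67.2 in TMut, and Slitrk2 rising at 1.27 ± 0.16. Of 53 clustered protocadherins 6 were falling (11.3%) and 1 rising, with Pcdhb5 at -0.64, Pcdhgb4 at -0.85 and Pcdhgc5 at 0.75; reads of genes in these clusters may be shared among near-identical copies. Falling shares of the synaptic genes and of the protocadherins lay near that over all genes (10.7%), and their rising shares lay below 12.2%. Ion channel subunits gave 17 falling (15.3%) and 12 rising (10.8%) of 111. The potassium channel gene Kcnk10 had 775, 865 and 987 in WT, 335 and 466 in TFoCa, and 52.98 and 6.003 in TMut. The sodium channel gene Scn7a had 7.85, 16.5 and 2.30 in WT, 86.2 and 63.3 in TFoCa, and 281 and 108 in TMut.

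Glial lists held genes of both directions. Of 24 astrocyte genes 6 were falling (25%) and 2 rising (8.33%). Mlc1 had 1354, 1318 and 1025 in WT, 216 and 278 in TFoCa, and 29.9 and 19.21 in TMut. Acsbg1, a fatty acid ligase, had 377, 622 and 639.6 in WT, 301 and 167 in TFoCa, and 108 and 40.8 in TMut. Slc39a12, a zinc transporter, had 176, 184 and 83.98 in WT, 76.6 and 36.5 in TFoCa, and 0 and 0 in TMut. Cd44, the hyaluronan receptor, and Gja1, connexin 43, were rising, Cd44 with 472, 493 and 783 in WT, 4518 and 2061 in TFoCa, and 1933 and 1882 in TMut. Gja1 had 4294, 3969 and 4584 in WT, 4910.0 and 7147 in TFoCa, and 6848 and 7727 in TMut. The 3 astrocyte markers in the table, Gfap, Aqp4 and Aldh1l1, were not chosen, and their sum was 752 to 889 in WT, 768 to 1025 in TFoCa and 197 to 297 in TMut. The medians of the list were -0.14 in TFoCa and -1.67 in TMut. Of 17 oligodendrocyte genes 6 were falling (35.3%) and 2 rising (11.8%), with medians of -0.31 in TFoCa and -0.97 in TMut. The 4 oligodendrocyte markers summed to 1345 to 1554 in WT, 1132 to 1575 in TFoCa and 507 to 818 in TMut, so that for both glial marker sums TFoCa overlapped WT and TMut lay lower; the part of either in these genes was not tested. Nkx6-2 had 911, 1280.4 and 1519.7 in WT, 504 and 461 in TFoCa, and 85.2 and 56.4 in TMut. Mobp had 112, 213 and 124 in WT, 7.66 and 4.87 in TFoCa, and 25.3 and 19.21 in TMut, while Cnp lay at 0.82 ± 0.14 and Sox10 was rising at low counts (7.85 to 29.2 in WT, 32.6 to 48.7 in TFoCa and 36.9 to 60.03 in TMut).

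Genes that act on DNA methylation and on chromatin formed smaller groups. Of 21 genes of TET, TDG and base excision, 4 were falling (19%, against 10.7% of all genes) and 2 rising (9.52%, against 12.2%). Tdg, the glycosylase that cuts out formylcytosine and carboxylcytosine, had 4621, 4395 and 4718 in WT, 3591 and 3842 in TFoCa, and 2888 and 2886 in TMut. All 4 mutant lines lay below WT, at -0.48 ± 0.07 log2 units, and TMut lay below TFoCa (adjusted p = 0.0231, limma). Mbd4, another glycosylase, had 623, 562 and 567 in WT, 375 and 460.1 in TFoCa, and 457 and 379 in TMut. Gadd45g had 8040.5, 7272 and 7492 in WT, 4572 and 5619.5 in TFoCa, and 2669.9 and 1822 in TMut. Parp1, a sensor of DNA breaks, had 17641, 15654 and 15621 in WT, 8775 and 15436 in TFoCa, and 11545 and 13128 in TMut with TFoCa replicate 2 close to WT. Parp1 lies on chromosome 1, where TFoCa replicate 2 was shifted by 0.47, and the part of that shift in this value was not tested. It was still falling once chromosome medians were removed. Gadd45b and Cxxc5 were rising, at 1.09 ± 0.18 and 0.42 ± 0.10. Of 19 writers and readers of DNA methylation 4 were falling (21.1%) and 2 rising (10.5%). Dnmt1, the maintenance methyltransferase, had 13903, 12554 and 12805 in WT, 8975 and 9438 in TFoCa, and 11039 and 10912 in TMut. Ctcf, whose binding can be blocked by methylation, had 6526, 5891 and 6496 in WT, 4329 and 4673 in TFoCa, and 4342 and 4478 in TMut. Both were lower in every mutant line, at -0.38 ± 0.08 and -0.50 ± 0.08, and the 2 genotypes did not differ beyond the threshold (adjusted p = 0.0798 and 0.848, limma). Uhrf1, the partner of Dnmt1, and the de novo methyltransferases Dnmt3a and Dnmt3b were not chosen. Of 32 Polycomb and Trithorax genes 6 were falling (18.8%) and 0 rising. Ezh2, the H3K27 methyltransferase, had 8813, 8510.2 and 9972 in WT, 5314 and 6177 in TFoCa, and 5296 and 4555 in TMut. Ring1, a ubiquitin ligase subunit, had 3623, 3188 and 3060.0 in WT, 2509.6 and 1968 in TFoCa, and 1799 and 1489 in TMut. Mtf2 and Pcgf5 lay at -0.51 ± 0.09 and -0.71 ± 0.13. None of the chosen genes of these 3 lists had a gap above 0.5 log2 units.

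Imprinted genes, whose parental alleles are told apart by DNA methylation, gave 6 rising (15%) and 4 falling genes (10%) of 40, shares near those over all genes (12.2% and 10.7%). Igf2r had 8770.1, 9251 and 10582 in WT, 17626 and 15450.0 in TFoCa, and 31071 and 34483 in TMut. Airn, the antisense RNA that runs across it, had 109, 113 and 117 in WT, 231 and 273 in TFoCa, and 369.7 and 329 in TMut. Reads of the overlapping pair cannot be told apart without strand. Impact and Phlda3 lay at 0.70 ± 0.09 and 0.98 ± 0.12. Nnat had 43448, 49829 and 48884 in WT, 9540.3 and 25751 in TFoCa, and 9591 and 2537 in TMut. Plagl1, a zinc finger factor, had 10465, 9164 and 9539 in WT, 1208 and 8578 in TFoCa, and 7417 and 4274 in TMut, where TFoCa replicate 1 stood far below the other 3 mutant lines. Snrpn lay at -0.34 ± 0.12 and Inpp5f at -0.70 ± 0.12.

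Several lists held few or no genes of either direction. Of 30 naive pluripotency genes 1 was rising, Spp1, and 1 falling, Tfcp2l1 (named after its values were seen), while the list's median was -3.39 in TFoCa and 0.18 in TMut. Of 30 germline genes 0 were chosen, and the same held for 28 cholesterol synthesis genes and 28 ATF4 targets. Of 87 cytosolic ribosomal protein genes 1 was rising and 0 falling, and of 82 genes of oxidative phosphorylation 1 was rising and 2 falling. In these lists the share of chosen genes was below that of all genes.

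The 2 mutant genotypes were then compared with each other, a contrast that the rule did not use, although it holds the 4 mutant values on 1 side of WT and so limits how far either can lie toward WT. limma called 3141 genes higher (17.3%) and 3350 lower (18.5%) in TMut than in TFoCa, 35.8% in either direction, over 18134 genes tested (adjusted p under 0.05, n = 2 and 2, with WT sharing the estimate of spread). Among 2204 rising genes tested, 536 were higher in TMut (24.3%) and 69 lower (3.13%). Among the 1936 falling genes, 39 were higher in TMut (2.01%) and 644 lower (33.3%), so that in both directions the called genes lay mostly farther from WT in TMut. For genes that were neither rising nor falling the shares were 18.3% and 18.8%. The median of TMut minus TFoCa was 0.24 log2 units in rising, -0.28 in falling and -0.003 in the other genes. TMut also spread more widely around WT over all genes. There the quartiles of the difference from WT were -0.54 and 0.45 in TMut, against -0.28 and 0.29 in TFoCa. What part this wider spread has in the order among chosen genes was not tested. Without TMut replicate 2 the 4 counts became 249, 11, 7 and 443; the 69 became 41 and 42 without WT replicates 2 and 3, and the 39 became 23, 19 and 17 without TMut replicate 1, WT replicate 2 and WT replicate 3. By the values alone, both TMut lines lay farther from WT than both TFoCa lines in 1086 rising and 1050 falling genes, and both TFoCa lines farther in 250 and 236. Over all 18145 genes, both TMut values lay above both TFoCa values in 33.9% and below them in 33.5%.

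**Figure D5:**
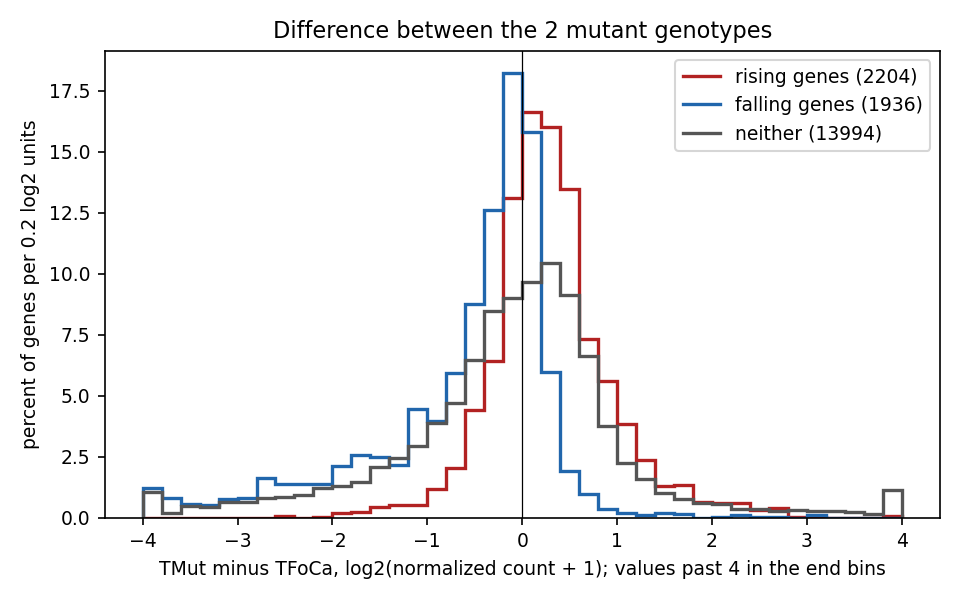
Share of genes (y axis, percent per bin of 0.2 log2 units) by TMut minus TFoCa on the log2(normalized count + 1) scale (x axis) for rising genes, falling genes and genes of neither kind, with the number of genes tested in brackets. Rising genes are shifted to the right (median 0.24) and falling genes to the left (median -0.28).

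Among rising genes called higher in TMut, the lowest adjusted p values were those of Anxa1, Spp1, Adamts14, Dock5, Slc40a1 and Amot. Anxa1, annexin A1, had 873, 799 and 1033 in WT, 3214 and 4382 in TFoCa, and 20235 and 23238 in TMut, and TMut lay 2.53 ± 0.18 log2 units above TFoCa (adjusted p = 0.00116, limma). Slc40a1, the iron exporter ferroportin, had 145, 155 and 131 in WT, 433 and 489 in TFoCa, and 2399 and 2046 in TMut (2.26 ± 0.18, adjusted p = 0.00132). In both genes TFoCa stood between WT and TMut with no overlap. In the other direction Tbx1, a factor of pharyngeal mesoderm, had 111, 64.02 and 132 in WT, 2227 and 815 in TFoCa, and 233 and 221 in TMut. Osr2, a factor of palate mesenchyme, had 81.6, 112 and 140.3 in WT, 931 and 505 in TFoCa, and 145 and 204 in TMut. They were rising in both genotypes but farther from WT in TFoCa (adjusted p = 0.00753 and 0.00734, limma).

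Among falling genes, Lrrtm2, a synaptic adhesion gene, had 182, 276 and 288 in WT, 74.7 and 99.8 in TFoCa, and 0 and 0 in TMut; TMut is at 0, at least 49.5-fold below TFoCa from a floor of 3 reads over the TMut group (24.7-fold with 6). Asic4, an ion channel family gene, had 542, 735 and 946 in WT, 511 and 504 in TFoCa, and 10.4 and 14.4 in TMut. Dner, a Notch ligand of neurons, had 2689, 3106 and 2792 in WT, 2413 and 2300.4 in TFoCa, and 479 and 353 in TMut. TFoCa stood near WT in both while TMut was far lower. Pcna, the polymerase clamp, had 10640.0, 8662 and 9833 in WT, 4430.1 and 5140.0 in TFoCa, and 7433 and 7986 in TMut. Lig1, the replicative ligase, had 9141, 8371 and 8384 in WT, 4787 and 5515 in TFoCa, and 7485 and 7809 in TMut. Here the TMut lines lay closer to WT than the TFoCa lines did (TMut minus TFoCa 0.69 ± 0.13, adjusted p = 0.00691, and 0.57 ± 0.11, adjusted p = 0.00706, limma). Spc24, a kinetochore subunit, and Esco2, a cohesin acetyltransferase, followed that order, at 0.73 ± 0.11 and 0.74 ± 0.14.

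Other genes were level in the 2 genotypes. Among the rising genes with the largest gap whose genotypes differed by at most 0.25 log2 units were Unc45b, a myosin chaperone, with 51.8, 24.7 and 47.2 in WT, 274 and 453 in TFoCa, and 255 and 438 in TMut. Capn6, a calpain-like protein, had 260.5, 190.2 and 283 in WT, 1318 and 1575 in TFoCa, and 1421 and 1297 in TMut. Klhdc8a lay at 2.44 and 2.49 log2 units from WT in TFoCa and TMut, and Fibin at 3.05 and 2.93. Among falling genes, Ppp4r4 had 282, 273 and 273 in WT, 137 and 119 in TFoCa, and 134 and 157 in TMut. These genes were chosen for that likeness, so no test of it is given.

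The chosen genes were also placed along the chromosomes by RefSeq gene order (build GRCm38; order only, since the files use another build), where 96.2% of them could be placed. Among the 25 measured genes on each side of a Tet gene, 5 were rising and 9 falling around Tet1, 8 and 3 around Tet2, and 7 and 7 around Tet3. Each Tet gene has 50 such neighbours, and the shares over all genes were 12.2% rising and 10.7% falling. Whether the counts depart from those shares was not tested. Runs of 4 or more neighbours in the same direction included Hoxd4 and Hoxd1 with 2 noncoding neighbours, Igf2r and Airn, and the Sox1 locus with its overlapping transcript Sox1ot. The median longest transcript in GENCODE was 3297 bases for rising, 3588 for falling and 3078 for all genes, and the median GC content was 50.7%, 49.8% and 49.8%.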

How the data were processed

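RNA of 7 lines of mouse neural stem cells (3 WT, 2 TFoCa, 2 TMut) was sequenced, with 1 library per line. Per the submitters' processing notes, reads were handled with STAR 2.7.3a, Trim Galore 0.6.5, SAMtools and featureCounts on the build mm39, and DESeq2 is named too; their settings, the annotation and the use of strand are not given in the sources used here. The deposited signal is a table of DESeq2-normalized counts, that is, gene counts which the authors divided by a size factor per library. Whole reads were recovered from the steps between low values (tolerance 0.001 reads); in WT replicate 2 no gene has 1 read, and the step was taken from the other values there. Even counts made up 70.3% to 79.3% of genes with 1 to 20 reads, so both mates of a pair may have been counted, and limits at a count of 0 are given for 3 and 6 reads and cover counting error only. The smallest sum of a gene over the libraries is 71 reads, so genes with few reads are not analysed here.

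The members and gene lists were chosen with earlier results of these data known, and no list supports its own direction. A difference from WT is the mean of both genotype means minus the WT mean of log2(normalized count + 1), with the standard error from limma 3.58.1 (R 4.3.3), and understates the change of low genes. TMut was compared with TFoCa by limma with trend over all 7 libraries, on 18134 genes with at least 10 in at least 2 libraries, with Benjamini-Hochberg adjustment and a threshold of 0.05. The fit was tested on simulated data. Named genes were those with the largest gaps and a mean of 100 or more in the higher group, those nearest the threshold of the rule, the extremes of TMut against TFoCa in each direction, those level in both, and those with the largest gaps in each list. Alternatives were other pseudocounts, filters and scalings, a margin on the gap, edgeR 4.0.16 and DESeq2 1.42.0 on the recovered reads, other limma settings, and each library left out. RefSeq promoters matched 75.9% of rising and 74.1% of falling genes, and GENCODE transcripts 97.4% of all genes. Some genes of the lists are counted but not reported by name here.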

Additional observations from a re-analysis of the deposited data

Results flagged for a closer look

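In 24 of the named genes the size of the difference from WT differed between TFoCa and TMut by limma's test of TMut minus TFoCa (log2 units ± SE, n = 2 and 2). Each of these genes lies on the same side of WT in all 4 mutant libraries, and they were named for having the lowest adjusted p in their direction.

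Rising genes that lay farther from WT in TMut were Anxa1 at 2.53 ± 0.18, Spp1 at 3.06 ± 0.24, Adamts14 at 2.28 ± 0.17, Dock5, a guanine nucleotide exchange factor gene, at 1.52 ± 0.11, Slc40a1 at 2.26 ± 0.18 and Amot at 1.78 ± 0.14 (adjusted p from 0.00116 to 0.00132). Rising genes that lay farther from WT in TFoCa were Cacna1g, a T-type calcium channel gene, at -0.78 ± 0.11, Parm1 at -0.91 ± 0.15, Hmcn1, a matrix protein gene, at -1.61 ± 0.29, Col25a1 at -0.94 ± 0.17, Osr2 at -1.99 ± 0.38 and Tbx1 at -2.57 ± 0.50 (adjusted p from 0.00317 to 0.00753).

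Falling genes that lay farther from WT in TMut were Asic4 at -5.26 ± 0.31, Dner at -2.52 ± 0.16, Fam189a1 at -3.76 ± 0.24, Mast1, a kinase gene, at -2.46 ± 0.17, Sema5b, a guidance gene, at -1.79 ± 0.13 and Lrrtm2 at -6.45 ± 0.41 (adjusted p from 0.000999 to 0.00116). Lrrtm2 was at 0 in both TMut libraries, so its fitted value is no bound and at least 5.63 log2 units is the limit from a floor of 3 reads over the group. Fam189a1 was no longer among the falling genes once chromosome medians were removed. Falling genes that lay farther from WT in TFoCa were Spc24 at 0.73 ± 0.11, Calcoco2, an autophagy receptor gene, at 2.80 ± 0.44, Phf11d at 3.06 ± 0.53, Pcna at 0.69 ± 0.13, Lig1 at 0.57 ± 0.11 and Esco2 at 0.74 ± 0.14 (adjusted p from 0.0036 to 0.00757), and Esco2 had an adjusted p of 0.0523 when the 2 mutant genotypes were fitted without WT.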

How the results depend on the processing

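The rule depended most on the margin asked of it. With a gap of at least 0.25 log2 units 1095 genes were rising and 565 falling, and with 0.5 the numbers were 643 and 218. Leaving out a library in turn gave 2348 to 3207 rising and 2100 to 3243 falling genes, the highest number of falling genes without TFoCa replicate 1. For TMut against TFoCa the ranges were 249 to 494 (rising, TMut higher), 11 to 96 (rising, lower), 7 to 48 (falling, higher) and 443 to 629 (falling, lower). Fitting the 2 mutant genotypes without WT gave 306, 28, 7 and 368 in that order, with fewer samples to estimate the spread. The replicate block gave 379, 35, 18 and 538. Deviations of libraries with the same replicate number correlated at 0.00237 to 0.226, and those with other numbers at -0.226 to 0.148. With 2 libraries per mutant genotype the 2 deviations mirror each other, so these values cannot tell whether replicate numbers pair the samples. Total-count scaling moved the falling genes called higher in TMut from 39 to 20, and the cause was not tested. The remaining scalings, filters and pseudocounts, voom, and robust estimation kept these 4 counts within 1.5 times, as did edgeR (545, 72, 39 and 622) and DESeq2 (603, 92, 42 and 670) on recovered reads, which came out whole for 100% of values in every library.

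Of the named genes' differences from WT, 944 values under the alternatives stayed within the spread and 28 moved further; 0 changed sign. For TMut minus TFoCa 527 kept their call and 1 lost it (Esco2). Of 210 recounts of the lists, 61 moved by more than 1.5 times, 53 of them with the margin of 0.5. Alternatives chosen after seeing the data were the removal of chromosome medians, the omission of chromosomes 1, 8 and 11, and thinning to the smallest total. Removing chromosome medians moved 6 list counts: rising DNA methylation genes went from 2 to 4, rising protocadherins from 1 to 3, and falling interferon and p53 genes from 2 to 1, besides both proneural counts given above. CG counts were not compared between the whole sets of rising and falling genes, since fewer than 80% of the genes have a promoter. Among the lists counted for motifs, the median CG count ran from 4 (rising chemokine and ion channel genes) to 20 (falling mitosis and replication genes). Over all promoters it was 6, and in rising AP-1, Egr and Myc genes 19.5. These medians were not tested. Scaling moved the median of all genes by -0.0531 to 0.0281 log2 units. With 2 lines per mutant genotype, a line and its genotype are told apart only by the spread of 1 other line.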

Other observations

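The following lists are not described above, and the shares over all genes were 12.2% rising and 10.7% falling. Of 18 Hedgehog pathway genes 3 were falling (16.7%: Ihh, a ligand, Gli2, a transcription factor, and Sufu, an inhibitor) and 2 rising (11.1%: Cdon and Disp1). Of 24 endoderm genes 4 were rising (16.7%: Dab2, Rbp4, Cer1 and Gata6) and 0 falling, and of 25 skeletal muscle genes 3 were rising, all of them troponin genes (12%: Tnnt1, Tnnt2 and Tnnc1), and 0 falling. Of 77 mitochondrial ribosomal protein genes 4 were rising (5.19%: Mrpl10, Mrps10, Mrps15 and Mrpl30), and of 29 glycolysis genes 2 were falling (6.9%: Ldhb and Pfkfb4). Of 57 zinc finger genes with names from Zfp900 to Zfp999, 3 were rising (5.26%) and 1 falling (1.75%). These genes were named after their values were seen.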
